A study of Mus musculus with 5 samples.

Results

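The regions described here were bound by macroH2A1.2-GFP in 3T3-L1 pre-adipocytes and were called in neither sample of mature adipocytes. A region of one pre-adipocyte replicate was kept where it overlapped a region of the other by 1 bp or more, and the kept regions of both replicates were merged. Of 18543 such common regions on the 19 autosomes, 1006 shared no bp with any region of either mature adipocyte sample, 5.43% of them, and covered 6.21 Mb. The other 17537 shared bp with a mature region and are called shared regions below. All 4 samples together gave 62927 merged regions. The regions were selected on the calls themselves, so their number, length and enrichment are descriptions and carry no test.

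3T3-L1 fibroblasts, a mouse line, turn into fat cells when a hormone cocktail is given at confluence. All ChIP cells carried macroH2A1.2 fused to GFP, delivered by a lentivirus, and were immunoprecipitated with an anti-GFP antibody. Pre-adipocytes (2 replicates) received no cocktail, whereas mature adipocytes (2 replicates) received IBMX, dexamethasone and insulin for 60 h, then insulin alone. A single library made without antibody was the control of all 4 samples. The antibody sees the tagged protein and not the endogenous histone, and the study's methods speak of stable clones, without saying how many were used. Conditions follow the sample titles. The description fields of both mature samples name the state before differentiation, and that of the control names the anti-GFP antibody, against its title. The methods paragraph on immunoprecipitation names mouse adipose tissue, whereas the labels name the cell line. The files hold no expression values, so the cell states could not be checked against marker genes.

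MacroH2A1.2 is a splice form of a histone H2A variant with a large globular macro domain behind its histone part. It replaces ordinary H2A in broad stretches of chromatin, is a classic component of the inactive X chromosome, and is found mostly over silent or weakly transcribed DNA. Adipogenesis, the change from precursor to fat cell, is driven by C/EBP factors and PPARγ, which switch on genes of lipid storage, while signals such as Wnt hold it back. In a bulk sample fewer cells carrying the histone at a place and less of it per cell cannot be told apart, and either can drop a region below the calling limit.

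Few of the 1006 regions lay over gene starts. An annotated transcript start of a protein-coding gene was covered by 31 of them (3.08%). Among the longer shared regions the share was 4.90%, and among regions called in mature adipocytes alone 2.89%. Of the 1006, 48 held a whole RefSeq promoter window (250 bases before to 50 after a gene start, build GRCm38.p6, which is mm10). The sequences below are the 250 bases before the start at 6 of these genes, shown because they are the strongest starts lying inside a region called in pre-adipocytes alone. They are the protein-coding genes with a RefSeq window inside a region among the 15 covered starts with the highest enrichment, taken from the top. Each is printed 5′ to 3′ on the strand of its gene. Capitals mark matches to the GATA letters AGATAA or AGATAG, and likewise TGATAA or TGATAG, read on both strands.
Plekha6, chr1:133245847-133246096, plus strand: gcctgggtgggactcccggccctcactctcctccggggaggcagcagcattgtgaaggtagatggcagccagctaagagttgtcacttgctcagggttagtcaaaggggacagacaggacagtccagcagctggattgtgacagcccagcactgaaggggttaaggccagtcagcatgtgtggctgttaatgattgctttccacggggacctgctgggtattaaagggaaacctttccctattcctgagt
Kel, chr6:41704326-41704575, minus strand: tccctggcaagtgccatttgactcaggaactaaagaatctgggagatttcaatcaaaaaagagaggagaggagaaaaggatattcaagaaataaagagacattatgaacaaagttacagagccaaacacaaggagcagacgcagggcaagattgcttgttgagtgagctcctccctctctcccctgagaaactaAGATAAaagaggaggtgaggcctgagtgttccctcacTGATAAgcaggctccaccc
Taar7a, chr10:23993482-23993731, minus strand: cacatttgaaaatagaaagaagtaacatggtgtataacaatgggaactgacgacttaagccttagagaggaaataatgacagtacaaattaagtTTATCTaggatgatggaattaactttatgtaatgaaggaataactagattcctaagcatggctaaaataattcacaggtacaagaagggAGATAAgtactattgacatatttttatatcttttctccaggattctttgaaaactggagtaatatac
Peli3, chr19:4943128-4943377, minus strand: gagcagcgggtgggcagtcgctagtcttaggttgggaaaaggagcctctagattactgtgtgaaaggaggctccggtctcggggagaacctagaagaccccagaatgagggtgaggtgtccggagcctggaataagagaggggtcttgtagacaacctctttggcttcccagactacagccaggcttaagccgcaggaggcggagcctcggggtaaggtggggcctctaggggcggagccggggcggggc
Wee2, chr6:40442613-40442862, plus strand: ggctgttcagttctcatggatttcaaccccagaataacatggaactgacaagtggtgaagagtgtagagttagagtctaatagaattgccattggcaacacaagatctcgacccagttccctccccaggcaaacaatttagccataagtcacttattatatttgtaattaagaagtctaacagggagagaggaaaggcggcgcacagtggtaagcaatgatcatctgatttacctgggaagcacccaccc
Pgf, chr12:85177314-85177563, minus strand: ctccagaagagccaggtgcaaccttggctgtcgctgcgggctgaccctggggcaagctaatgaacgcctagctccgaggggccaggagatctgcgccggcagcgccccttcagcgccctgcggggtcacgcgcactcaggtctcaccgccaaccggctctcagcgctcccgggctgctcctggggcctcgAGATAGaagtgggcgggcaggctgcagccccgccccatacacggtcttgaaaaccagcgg
The 6 stretches differ widely in composition. Pgf, which encodes placental growth factor, had 68.4% G and C and 20 CG dinucleotides over these 250 bases. Taar7a, a trace amine receptor of the nose, had 31.2% and 1 CG. Kel, the Kell blood group endopeptidase, and Taar7a each held 2 GATA matches, Pgf held 1, and Plekha6, Peli3 and Wee2 held none.

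Over all 55 promoter windows inside these regions, median GC content was 48.3%, against 48.3% for 2042 windows in shared regions, 48% for 388 windows in regions called in mature adipocytes alone and 53% for all 31396 autosomal windows of the RefSeq table used. CpG-rich windows, with 10 or more CG dinucleotides in 300 bases, made up 16.4%, 14.0%, 16.0% and 44.0% in the same order. Gene starts inside macroH2A1.2 regions of all 3 kinds were thus poorer in CG than gene starts at large, and the medians and shares of the 3 kinds were close to each other. Many of the 55 windows belong to genes with Gm or Rik symbols, and the sets were not matched for type of gene. A GATA match stood in 24 of the 55 windows, 43.6%, against 38.9% in shared regions, 36.9% in mature-only regions and 29.5% of all windows. GATA factors hold back fat cell formation in precursors, which is why these letters were looked for. For TGACAG, letters of a TGIF or Meis site, the shares were 30.9%, 22.4%, 26.0% and 19.0%. CACGTG, the E-box, stood in 7.27%, 5.24%, 5.67% and 7.14%. GGAATG, a TEAD site, was found in 16.4%, 19.4%, 13.1% and 14.6%, so its share was highest in shared regions. AGGTCA, the core of nuclear receptor sites, was found in 20%, 19.7%, 22.9% and 16.3%, with the highest share in mature-only regions. These other motifs, also of 6 letters, do not contain GATA. The 55 windows came from 48 genes, so for the E-box and the TEAD letters a single window is worth more than the difference from all windows. For GATA the lead over shared regions is a few windows, and Utp25 and Gm30262 each gave overlapping windows that were counted separately. The GATA letters hold few G and C, and windows inside the regions had less of both than all windows. The part of composition in the GATA shares was not tested. Letter matches say nothing of whether a factor bound.

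Each region is known from 4 numbers per pre-adipocyte replicate: ChIP reads, control reads, the fold enrichment (ChIP over control, scaled to library size) and the false discovery rate (FDR). Relative to the control, library size was 1.20 in replicate 1 and 0.549 in replicate 2 of pre-adipocytes, and 1.23 and 1.21 in mature replicates 1 and 2. In replicate 1 the median piece of these regions held 148.5 ChIP reads and 79 control reads over 4600 bp. Replicate 2, the shallower library, had 51 ChIP and 46 control reads over 2800 bp. Median fold enrichment was 1.55 in replicate 1 and 2.01 in replicate 2, a mean of 1.78 ± 0.328 (SD, n = 2). The shared regions of the same libraries had 1.61 and 1.99, close to these medians. All are medians over pieces that passed the caller, and the shared pieces were longer, with medians of 7400 and 3200 bp. Close medians therefore need not mean equal enrichment. The regions called in pre-adipocytes alone were less securely called. An FDR over 1e-05 was found for 32.4% and 43.4% of them, against 12.3% and 30.6% of the shared ones. Control reads per kb, 17.4 in both replicates, were close to those of shared regions, 18.1 and 18.6.

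**Figure D1:**
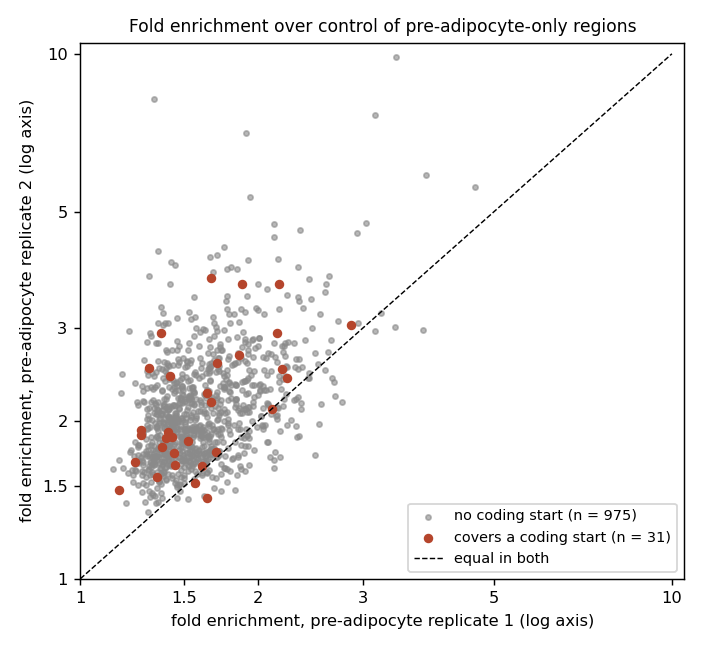
Fold enrichment over the control of each of the 1006 regions called in pre-adipocytes alone, replicate 1 on the x axis and replicate 2 on the y axis, both log axes. Red points are the 31 regions that cover a protein-coding start. 909 points lie above the dashed line of equal values.

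Fold enrichment was higher in replicate 2 at 909 of the 1006 regions (90.4%), and only 113 (11.2%) reached 2 in both replicates. The medians of the shared regions differed in the same direction, 1.61 in replicate 1 and 1.99 in replicate 2, so this is not particular to the set. Each replicate's fold was taken over its own called pieces, so the values do not cover the same bp. In the plot of fold enrichment by replicate the points sit in a dense cloud between about 1.2 and 3, with a thin tail above 5 in replicate 2. Across regions, log2 fold enrichment of the replicates had a Pearson r of 0.481, a description over regions that share the control library. The 95% exact (Clopper-Pearson) counting intervals of both replicates overlapped at 981 regions (97.5%). They cover counting error only and were wide, with a median width of 0.892 in replicate 1 and 1.70 in replicate 2. At 70 regions the lower bound was over 1.5 in both replicates.

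Overlap between the replicates was required by the rule, but not equal extent. 938 of the regions (93.2%) were built from 1 region of each replicate. The median share of a region's length that both replicates called was 43.5%, since replicate 1 covered 96.3% of it and replicate 2 covered 54.0%. The merged regions were of middling length, with a median of 5600 bp, quartiles of 4200 and 7400 bp, and extremes of 1800 and 30400 bp. Shared regions had a median of 8600 bp, and 41.6% of them reached 10 kb, against 8.15% of those called in pre-adipocytes alone. Regions called only in mature adipocytes, 7992 of 34121 common mature regions (23.4%), were shorter still, with a median of 4400 bp. A longer region has more bp at which it can meet a mature region, and the part of length in the 5.43% was not tested. The shares of 5.43% and 23.4% also come from libraries of unlike depth. Relative library size was 0.549 in pre-adipocyte replicate 2, against 1.20 to 1.23 in the other samples, and the part of depth was not tested.

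The strongest regions were short and mostly outside genes. Ranked by the smaller fold enrichment of the replicates, the first was chr6:40879601-40882000, in an intron of Moxd2. It held 95 ChIP and 17 control reads in replicate 1 and 52 and 17 in replicate 2. These give 4.65-fold (95% interval 2.76 to 8.31) and 5.57-fold (3.17 to 10.3), and both replicates called the same 2400 bp. The second, chr2:25859601-25863200, lay 534 bp from Kcnt1, a sodium-activated potassium channel gene. Its enrichment was 3.84-fold from 83 ChIP reads in replicate 1 and 5.89-fold from 42 in replicate 2. Next, in an intron of Rbfox3, which encodes the neuronal splicing factor NeuN, was chr11:118657801-118662400. It reached 3.42-fold in replicate 1 and 9.84-fold in replicate 2, the highest value of all, but the latter rests on 27 ChIP and 5 control reads and has an interval of 3.74 to 32.7.

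The remaining 7 of the first 10 were intergenic, with smaller fold enrichments between 2.95 and 3.20. The region on chr14:13001801-13005800, 178722 bp from Cadps, a gene of vesicle release, is the best isolated of them. It had 147 ChIP and 36 control reads in replicate 1 (3.40-fold) and 53 and 32 in replicate 2 (3.02-fold), and the nearest mature region was 542 kb away. Another, chr14:92499601-92504200, was the only other strong region on that chromosome with a gap above 5 kb, at 6.6 kb. It was enriched 3.15-fold and 2.97-fold and lay 509210 bp from the protocadherin gene Pcdh9. 7 of the 10 had a mature region within 5 kb, the closest at 0.4 kb. Strong enrichment in pre-adipocytes therefore did not mean distance from the mature calls.

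The 5 longest regions were weakly enriched. The longest, 30400 bp on chr6:14719201-14749600, overlapped Ppp1r3a, a glycogen-targeting subunit of protein phosphatase 1. It was enriched 1.30-fold in replicate 1, from 928 ChIP and 595 control reads, and 1.71-fold in replicate 2, where it was broken into 3 regions of 6200 bp in all. The next, 28800 bp inside the cadherin gene Cdh18, had 1.25-fold and 1.51-fold. The other 3 of the 5 longest lay 372876 bp from Nectin3, 746983 bp from Cdh18, and within the adhesion gene Cadm2. Their enrichment ran from 1.16 to 1.32 in replicate 1 and from 1.53 to 1.68 in replicate 2. This did not hold for every long region: 1 of 22400 bp in Alk, described below, had 1.82-fold and 2.56-fold.

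**Figure D2:**
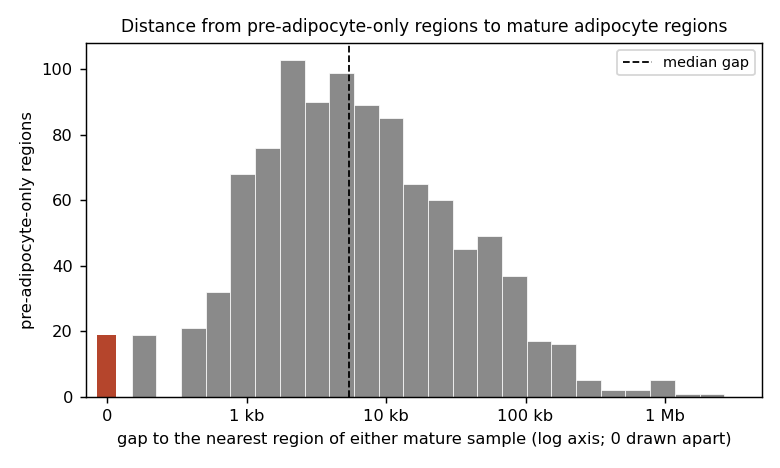
Number of regions called in pre-adipocytes alone (y axis) by the gap to the nearest region of either mature sample (x axis, log scale, with the 19 regions at 0 bp drawn apart in red). The dashed line is the median, 5400 bp, and the bulk of the regions lies between 1 and 20 kb.

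Most regions lay close to mature binding without sharing any of it. The gap to the nearest region of either mature sample had a median of 5400 bp (quartiles 1800 and 17550 bp), 479 regions (47.6%) had one within 5 kb, and 124 (12.3%) within 1 kb. At the other end, 122 (12.1%) were 50 kb or more away and 50 (4.97%) 100 kb or more. The histogram of gaps shows a single broad hump, with no separate group of remote regions. Near and far regions were alike in strength: median fold enrichment in replicate 1 was 1.62, 1.52, 1.57 and 1.53, and in replicate 2 was 2.00, 2.02, 2.01 and 2.00, for gaps under 1 kb, of 1 to 5 kb, of 5 to 50 kb and of 50 kb or more. Their median lengths were 5600, 5400, 5600 and 5600 bp. The most remote group was the least intergenic, at 52.5% against 57.3%, 60.3% and 60.5% in the nearer ones.

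Csmd3, a very long gene of the CUB and Sushi family, held a pair of the 5 regions farthest from any mature region, with gaps of 1156000 and 1052800 bp. Their enrichment was modest, at 1.51-fold and 1.99-fold in the former and 1.35-fold and 1.95-fold in the latter, replicate 1 first. Another of the 5, chr14:88386801-88396400, lay 1059800 bp from a mature region and 68343 bp from Pcdh20. It was the strongest of the 5, at 2.17-fold from 302 ChIP reads in replicate 1 and 2.37-fold from 43 in replicate 2.

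Regions on either side of the limit differed little. 19 regions touched a mature region without sharing a bp, and 23 common regions were left out for sharing 200 bp, the smallest step of the caller. The median fold enrichment of the former was 1.51 in replicate 1 and 1.92 in replicate 2, that of the latter 1.57 and 2.00, and their median lengths were 5600 and 5400 bp. All 23 shared regions at this limit met a region of 1 mature replicate and not of the other. Among those just inside were regions 9860 bp from Ezh2, the Polycomb methyltransferase (1.77-fold and 1.62-fold), and 226965 bp from Rybp, a Polycomb partner (2.10-fold and 2.68-fold). Just outside were regions within Plekha6 (1.83-fold and 2.38-fold), Shroom3 (1.87-fold and 2.54-fold) and Grik2 (1.32-fold and 3.89-fold).

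By midpoint, 594 of the regions (59.0%) were intergenic, 398 (39.6%) intronic and 14 (1.39%) exonic. Per replicate the intergenic share was 59.1% and 58.8%, against 64.5% and 64.8% of the shared regions in the same libraries, so fewer of the regions called in pre-adipocytes alone lay between genes in both replicates. Regions called only in mature adipocytes had 59.3% and 59.5%. The difference of pre-adipocyte-only minus mature-only regions was -0.391 percentage points (58.97 ± 0.246 against 59.36 ± 0.138, SD, n = 2 each). Both replicates of a condition describe largely the same places, since the rule asked that their regions overlap. These SDs therefore do not measure the spread of independent samples. The exact two-sided permutation test over the 4 samples gave p = 0.33, the smallest p that 2 against 2 can reach. The split between genes and intergenic DNA was thus nearly the same in regions called only before and only after differentiation, and the test could not have passed a threshold.

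A protein-coding start was covered by 2.72% of the regions of replicate 1 and 1.41% of those of replicate 2, against 2.02% and 1.77% in mature-only regions. The difference was 0.175 percentage points and the exact two-sided permutation p was 1. It turned to -0.482 without pre-adipocyte replicate 1, so no direction can be read from it. Beyond starts, 109 regions (10.8%) lay over 500 kb from any protein-coding start, more than the 6.78% of shared and 4.22% of mature-only regions. The share within 10 kb of one was also the highest, 175 regions (17.4%), against 14.1% of shared and 15.8% of mature-only regions. Of non-coding genes, a lincRNA or antisense gene was overlapped by 103 regions (10.2%), against 14.4% of the longer shared regions and 9.86% of mature-only regions. A pseudogene was overlapped by 27 (2.68%), against 4.82% and 2.83%.

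The 31 regions at protein-coding starts were led by Plekha6, a pleckstrin homology protein, on chr1:133244401-133248800. It held 145 ChIP and 42 control reads in replicate 1 (2.87-fold) and 30 and 18 in replicate 2 (3.04-fold), 11.2 kb from the nearest mature region. Next came the starts of Efcab6, an EF-hand protein, at 2.24-fold and 2.41-fold, and Kel at 2.19-fold and 2.51-fold. Immune genes among the first 15 were Il2rb, the β chain of the interleukin-2 receptor (2.16-fold from 247 ChIP reads and 3.64-fold from 40), and Peli3, a ubiquitin ligase of innate immune signalling (1.88-fold and 3.64-fold). Transport and metabolism were represented by Slc25a41, a mitochondrial carrier (2.15-fold and 2.94-fold), Apof, an apolipoprotein (1.66-fold and 2.18-fold), and Pla2g1b, the pancreatic phospholipase A2 (1.60-fold and 1.64-fold).

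Others were genes of the germ line or of a single organ. Wee2, a kinase of the oocyte, had 1.69-fold and 1.74-fold, Dcst2, a sperm membrane protein, 1.66-fold and 3.75-fold, and Taar7a 2.11-fold and 2.10-fold. Prrx2, a homeobox gene of embryonic mesenchyme, had 116 ChIP and 52 control reads in replicate 1 (1.86-fold) and 41 and 28 in replicate 2 (2.67-fold), with the nearest mature region 43.6 kb away. The first 15 were completed by Rbm47, an RNA-binding protein (1.70-fold and 2.58-fold), Pgf (1.64-fold and 2.26-fold) and Clip4 (1.56-fold and 1.52-fold). Among the weaker starts was Calcr, the calcitonin receptor, 93 kb from any mature region (1.39-fold and 1.85-fold), chosen for mention after its values were seen. Without expression values it is not known whether any of these genes was active.

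Protein-coding gene bodies were overlapped by 350 of the regions (34.8%), against 29.2% of shared and 34.8% of mature-only regions. Across 20807 autosomal protein-coding genes, 274 (1.32%) had at least 1 in their body. The share rose with gene length, from 15 of 7287 genes under 10 kb (0.206%) to 69 of 541 genes of 300 kb or more (12.8%). Shared regions were also found more often in long genes, from 5.57% to 33.8%.

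**Figure D3:**
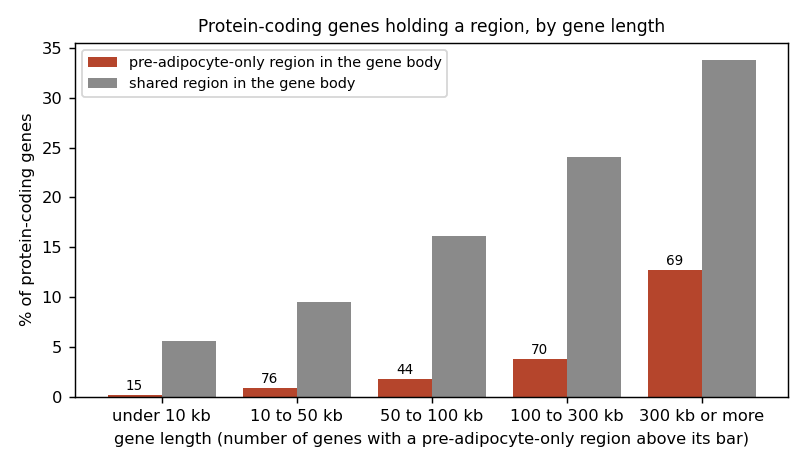
Percent of protein-coding genes (y axis) with a region called in pre-adipocytes alone (red) or a shared region (grey) in their body, by gene length (x axis). Red bars rise from 0.206% to 12.8% and grey bars from 5.57% to 33.8%.

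Alk, a receptor tyrosine kinase gene of 735656 bp on chromosome 17, held the most, 12 regions covering 98.2 kb. Their fold enrichment ran from 1.36 to 2.27 in replicate 1 and from 1.62 to 3.19 in replicate 2. The widest, chr17:72376001-72398400, had 683 ChIP and 313 control reads in replicate 1 (1.82-fold) and 90 and 64 in replicate 2 (2.56-fold). Alk was not emptied in mature adipocytes: 13 further regions of its body were shared, and the mature replicates called 24 and 20 regions there, against 42 in each pre-adipocyte replicate. The regions named here are those the rule picked, so a fall in number inside a gene picked for holding many of them is a description.

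Cdh18, a neuronal cadherin, and Ryr3, a calcium release channel, held 8 each. In Cdh18 fold enrichment stayed between 1.24 and 1.54 in replicate 1 and between 1.40 and 2.47 in replicate 2, and 12 other regions were shared. Ryr3 was stronger, at 1.44 to 2.13 and 1.70 to 4.74, also with 12 shared regions. Its region nearest the gene start, chr2:113209201-113212800, had 110 ChIP and 43 control reads in replicate 1 (2.13-fold) and 39 and 15 in replicate 2 (4.74-fold).

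**Figure D4:**
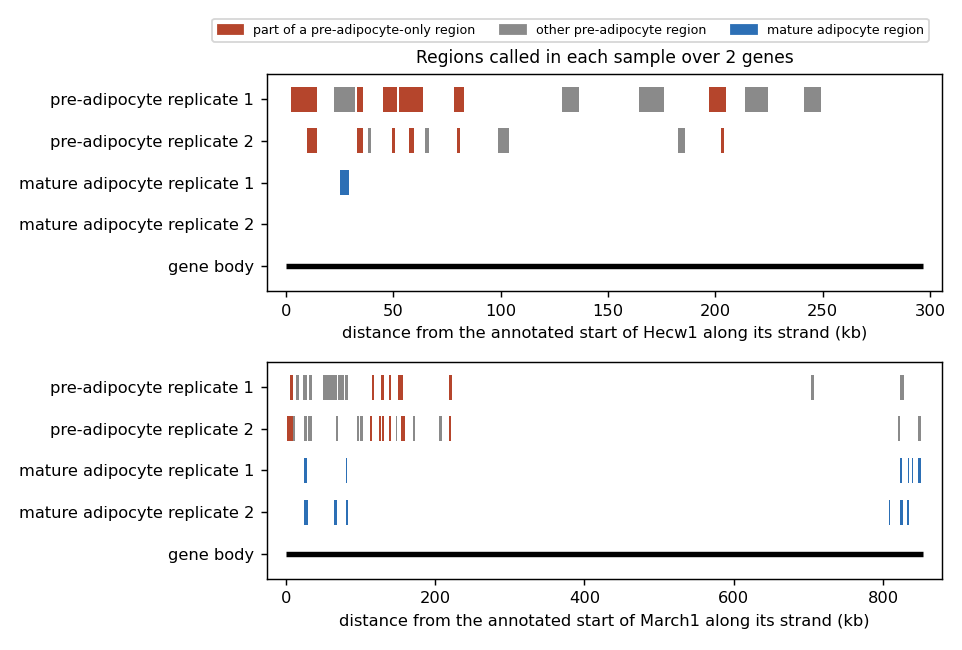
Regions called in each of the 4 samples over Hecw1 (top) and March1 (bottom), with the distance from the annotated gene start in kb on the x axis and 1 row per sample. Red bars are parts of regions called in pre-adipocytes alone, grey bars other pre-adipocyte regions and blue bars mature adipocyte regions. Over Hecw1 the mature samples have 1 and 0 regions, against 11 and 10 in pre-adipocytes.

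Hecw1, a ubiquitin ligase gene of 296791 bp on chromosome 13, held 6 and had no shared region, so all its common pre-adipocyte regions were called in pre-adipocytes alone. Replicates 1 and 2 of pre-adipocytes called 11 and 10 regions in it, and those of mature adipocytes 1 and 0. The regions nearest the gene start were chr13:14508601-14520800, with 405 ChIP and 217 control reads in replicate 1 (1.55-fold) and 88 and 85 in replicate 2 (1.89-fold), and chr13:14487201-14490200, with 106 and 41 (2.15-fold) and 61 and 43 (2.59-fold). Enrichment over the 6 was 1.55 to 2.15 in replicate 1 and 1.89 to 3.44 in replicate 2. As the maps of Hecw1 and March1 show, the single mature region of Hecw1 fell between them.

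March1, a membrane ubiquitin ligase of antigen-presenting cells, held 6 in the part of the gene nearest its start, beside 3 shared regions. Their enrichment was low and even, at 1.43 to 1.56 in replicate 1 and 1.50 to 2.31 in replicate 2. March1 had 15 and 18 regions in pre-adipocytes and 6 in each mature sample.

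Sorcs3, a sorting receptor of neurons, and Slc4a10, a bicarbonate transporter, each held 3 and had no shared region. In Sorcs3 the pre-adipocyte replicates called 5 and 6 regions and the mature ones 3 and 4, at other places. Slc4a10 showed how loosely the replicates could fit: of 9 regions called in each pre-adipocyte replicate, 2 pairs met inside the gene and another at its start, and the 4 and 8 regions of the mature replicates met each other nowhere. Its start was among the 31, with 198 ChIP and 130 control reads in replicate 1 (1.27-fold) and 59 and 56 in replicate 2 (1.92-fold). Dlgap1, a postsynaptic scaffold gene, held 5 and the phosphodiesterase gene Pde4d 4. Pde4d is the contrary case to Hecw1, with 30 shared regions, 53 and 59 regions in pre-adipocytes and 58 and 68 in mature adipocytes.

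Lists of genes around fat cell formation were read against the share over all protein-coding genes, 1.32%. None of 21 adipogenic transcription factors, 30 genes of lipid storage and adipokines, 15 thermogenic genes, 8 GATA factors and partners, 31 cell cycle regulators and 39 Hox genes held one, and neither did any of the 20 genes of the study's adipogenesis array. Shared regions were found in 6 of the adipogenic factors (28.6%), 5 of the lipid genes (16.7%), 7 of the thermogenic genes (46.7%) and 2 of the GATA list (25%). They were also found in 3 of the cell cycle list (9.68%), 11 of the Hox genes (28.2%) and 2 of the array genes (10%). Of all autosomal protein-coding genes, 10.8% held a shared region. At a share of 1.32%, lists this short need not hold any region called in pre-adipocytes alone. The counts of 0 thus say nothing particular about the lists. Of 23 anti-adipogenic regulators none held a region either, but one began 5504 bp after the start of Id3, an inhibitor of basic helix-loop-helix factors. This region, chr4:136149001-136153800, had 130 ChIP and 46 control reads in replicate 1 (2.35-fold) and 38 and 15 in replicate 2 (4.62-fold), with the nearest mature region 9600 bp away.

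Signalling and matrix genes gave a few single regions. Of 52 genes of the Wnt pathway, which keeps precursors from becoming fat cells, 1 held a region: Dkk3, a secreted protein of the Dickkopf family. It had 217 ChIP and 111 control reads in replicate 1 (1.63-fold) and 59 and 46 in replicate 2 (2.34-fold), 120000 bp from any mature region. Among 49 genes of BMP, TGF-beta and FGF signalling none held one, and a region lay 3207 bp before the start of Smad3, the TGF-beta effector, at 2.55-fold and 3.19-fold. Of 36 collagen and fibroblast matrix genes none held one, while a weak region (1.33-fold and 1.44-fold) lay within 5 kb of the end of Col1a2, a type I collagen chain, with a mature region 800 bp off. These distances all fell within the 5 kb margin used around gene bodies.

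Axon guidance and adhesion genes were hit most often, 6 of 48 (12.5%): Sema3a, Adgrl3, Pcdh17, Pcdh9, Cdh18 and Csmd3. These genes are long, with a median of 499 kb over the list against 17.6 kb over all genes, and 12.8% of all genes of 300 kb or more held a region. Pcdh9 and Pcdh17, both protocadherins, had the strongest, at 2.59-fold and 3.51-fold in the former and 2.20-fold and 2.13-fold in the latter. Sema3a, a repelling guidance cue, held 2, at 1.41-fold and 2.10-fold, and at 1.27-fold and 1.52-fold. Adgrl3, an adhesion receptor, had 1 at 1.53-fold and 1.71-fold.

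Receptor families of the nose have short genes, with median lengths of 5.99 kb for olfactory and 10.3 kb for vomeronasal receptors, and 0.206% of all genes under 10 kb held a region. Of 1128 olfactory receptor genes 5 held one (0.443%, against 1.32% of all genes) and 8 had one in the body or within 5 kb, all 8 on chromosome 6 between Olfr450 and Olfr434. The one with the most reads lay over Olfr437 on chr6:43154801-43170200, with 574 ChIP and 314 control reads in replicate 1 (1.52-fold) and 268 and 267 in replicate 2 (1.83-fold). Of 329 vomeronasal receptor genes 1 held one (0.304%), Vmn2r90 (1.32-fold and 1.60-fold), and Vmn1r44 had one within 5 kb. Reads were kept only where they mapped uniquely, and members of these families resemble each other, so their counts are less certain than those of single genes.

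**Figure D5:**
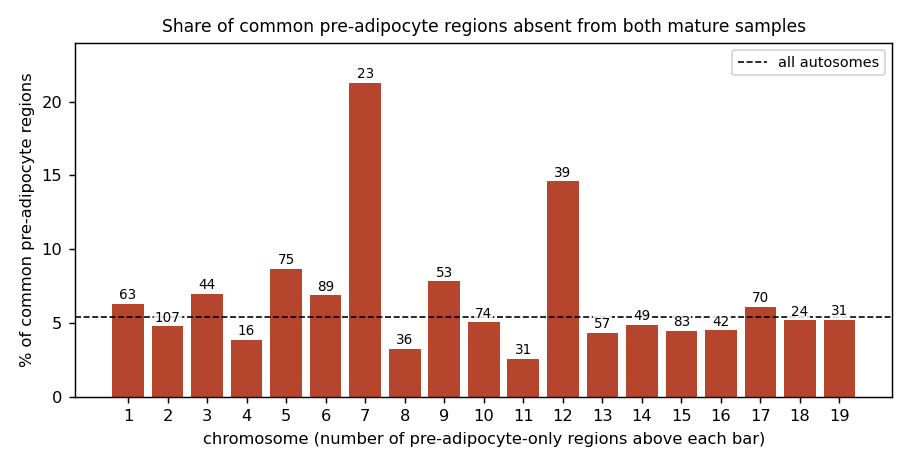
Percent of the common pre-adipocyte regions of each autosome that were called in neither mature sample (y axis), with the number of such regions above each bar and the share over all autosomes, 5.43%, as a dashed line. Chromosome 7 (21.3%) and chromosome 12 (14.6%) stand above the other autosomes, which run from 2.57% to 8.69%.

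The regions were spread over all 19 autosomes. Chromosome 2 held the most, 107, followed by chromosome 6 with 89 and chromosome 15 with 83, and chromosome 4 the fewest, 16. As a share of a chromosome's common pre-adipocyte regions they ranged from 2.57% on chromosome 11 to 21.3% on chromosome 7. As the plot by chromosome shows, chromosome 7 stood apart, with 23 of 108, and chromosome 12 followed, with 39 of 267 (14.6%). Both had few common regions to begin with, where chromosome 2 had 2228. They also had the largest mature-only shares, 43.8% of 317 common mature regions on chromosome 7 and 41.5% of 632 on chromosome 12, so calls were less often matched between conditions there in either direction.

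Spacing between the regions varied widely. 331 (32.9%) had another within 100 kb and 269 (26.7%) had none within 1 Mb, and the median distance to the next was 291.6 kb. Of the 7992 mature-only regions, which are far more numerous, 80.0% had another within 100 kb. Of 621 windows of 1 Mb that held any, 404 held 1 and 135 held 2. The richest were chr15:23000001-24000000, with 10 of its 34 common pre-adipocyte regions, and chr17:72000001-73000000, with 10 of 27. The former holds the end of Cdh18 and the latter spans Alk, Lbh and Ypel5. The windows chr15:29000001-30000000 and chr8:65000001-66000000 held 8 each. On chr8 these were 8 of 12 common regions, and the pre-adipocyte replicates called 24 and 27 regions there, against 2 and 6 in mature adipocytes. The chr15 window held no protein-coding gene and had 40 and 39 against 16 and 24 regions. These windows were picked for holding many regions absent from the mature samples, so lower mature counts in them are a description. A shared region was usually not far off, at a median of 26.6 kb, although 227 regions (22.6%) had none within 100 kb.

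Membership depended on where the limit was set. With an FDR of 1e-05 or less asked of pre-adipocyte regions 438 were found, and with a fold enrichment of at least 2 there were 117. When 5 kb were required to the nearest mature region 527 were left. Without mature replicate 1 there were 2048 and without mature replicate 2 there were 2052, so each mature sample alone covered over 1000 regions that the other did not. Taking a single pre-adipocyte replicate raised the number to 5996 without replicate 1 and 4361 without replicate 2. The 10 strongest regions all remained at an FDR of 1e-05. Fold and FDR come from the same counts, so this followed from how they were picked. At 5 kb, 3 of the 10 remained. 27 of the 1006 (2.68%) were kept, whole or in part, under every alternative tried. Settings that counted fewer mature regions, or left out a single sample, kept all 1006 by construction. Among the 27 were regions inside Alk, Ryr3, Foxp2, Cftr, Dlg2 and Cap2, a region 288 bp from Sox4, and those at the starts of Slc25a41 and Taar7a. The Ryr3 region had 1.56-fold and 1.93-fold over all its pieces, so as a whole it did not reach a fold of 2. Foxp2, Cftr, Dlg2, Cap2 and Sox4 were picked for mention after their values were seen. The Sox4 region, chr13:28954001-28957400, was enriched 2.43-fold and 2.41-fold. Read counts of the mature samples at the 1006 regions are not among the values used here, so whether their signal fell or stayed just under the limit was not tested.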

How the data were processed

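MacroH2A1.2-GFP in 3T3-L1 cells was measured by ChIP-Seq before differentiation (2 samples) and after it (2 samples), against 1 library without antibody. Per the labels and the methods, single reads were mapped by the authors to mm10 using Bowtie 1.1.2, with unique hits and no more than 2 mismatches. They used Picard to drop duplicates and SICER 1.1 to call regions sample by sample. The deposited tables hold, for each region, a p-value, an FDR, raw counts of ChIP and control reads, and their ratio, which the authors scaled by library size and gave as fold enrichment. The largest deposited FDR was under 0.001. Depth is the count per region, since library totals were not used here, and the samples' regions held from 2833105 to 11592708 ChIP reads.

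Overlap, merging and annotation (GENCODE M21 basic, by region midpoint) were done in Python 3.11.15 with pandas 2.3.3, and the overlap functions were tested on simulated regions against brute force. Coordinates are 1-based. Intervals are exact binomial ones. Samples were compared by exact two-sided permutation, which with 2 against 2 cannot go under 0.33. P-values set a difference against the spread between these samples only, and within each condition the rule made the regions of the replicates overlap. Regions were named by rule: the 10 with the highest smaller fold enrichment, the 5 longest, the 5 farthest from a mature region, those at either side of the limit, the 15 strongest at protein-coding starts, the 10 genes with the most regions, and every listed gene with a region within 5 kb. The regions and gene lists were chosen with earlier results of these data known. Of the listed genes, 4 were not found on autosomes. Some regions that the rule names are not reported here. GC content and GATA matches over whole regions were planned and not computed, since no genome sequence was used here. RefSeq promoter windows were read instead, a choice made after seeing the files, and 35.1% of them began like a GENCODE transcript of the same symbol. Alternatives changed the overlap, FDR, fold, gap and annotation settings and left out each sample.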

Additional observations from a re-analysis of the deposited data

Results flagged for a closer look

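The rule kept autosomes only. On chromosome X, which no comparison above used, 14 of 118 common pre-adipocyte regions (11.9%) shared no bp with a region of either mature sample, and they are mentioned because they lie outside the set described. No test was run on them.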

How the results depend on the processing

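The number of regions called in pre-adipocytes alone moved most. It was 463 when replicates had to share 50% of both regions, 438 at a pre-adipocyte FDR of 1e-05 or less, 1792 at a mature FDR of 1e-05 or less, 117 at a fold enrichment of at least 2, 527 with no mature region within 5 kb and 3084 against regions common to both mature replicates. As a share of common regions this was 6.72%, 3.42%, 9.66%, 4.44%, 2.84% and 16.6%. Leaving out each sample gave 2048 to 5996 regions and shares of 11.0% to 15.7%. The intergenic share was 59.4%, 58.4%, 60.4%, 57.3%, 58.6% and 60.7% in that order, 59.3% with no mature region within 1 kb, 52.4% counting regions that overlap no gene, 67.7% with protein-coding genes only, and 56.4% to 60.3% without single samples. The share at coding starts was 4.34% at the stricter pre-adipocyte FDR, 5.13% at a fold of at least 2, 7.46% with starts within 1 kb, and 1.57% to 3.71% without single samples. Median length ran from 2400 to 5800 bp without single samples, and median fold enrichment was 2.41 where at least 2 was asked. The cause of these shifts was not tested, beyond the settings' own construction.

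Against mature-only regions, the intergenic difference was negative under every setting tried. Leaving out a sample here only dropped its value from a group mean, and the regions were not rebuilt. Without single samples the intergenic difference ran from -0.565 to -0.217. Both pre-adipocyte shares lay below both mature shares, so that sign could not change. The intergenic difference was -0.610 at 50% overlap, -1.57 at a fold of at least 2 and -0.663 with 5 kb to the other condition. The difference at coding starts ran from -0.482 to 0.831 without single samples, reversed without pre-adipocyte replicate 1, and was 0.677, 2.28 and 0.360 under the other 3 settings in the same order. With the replicate number as a block the differences stayed -0.391 and 0.175, and 2 pairs cannot give an exact p under 0.5. The shared numbers mark no common culture in the labels. GC content and GATA matches over whole regions were not run, nor their alternatives. Depth limits single regions, with medians of 51 ChIP and 46 control reads in the shallower library.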
